A study of Mus musculus with 2 samples.

Results

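The axon and vessel guidance genes are the semaphorins, netrins, Slits and ephrins, which are ligands, and their receptors, the plexins, neuropilins, Unc5 proteins, Dcc, Robos and Ephs. They were chosen by symbol alone, and 69 of the 32285 genes listed in the matrices matched: 35 ligands and 34 receptors. Guidance ligands are secreted or held on cell surfaces and attract or repel growing axons, and the same signals steer sprouting vessels and migrating cells. In the limb, motor and sensory axons, the vascular plexus and migrating muscle precursors all grow through a mesenchyme that makes many of these ligands. Ephs and ephrins are both membrane proteins, so that they act between touching cells, whereas class 3 semaphorins, netrins and Slits are released.

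The data are single-cell RNA counts from limb skeletal muscle tissue of wild-type (WT) C57Bl/6 mouse embryos at the embryonic ages E12.5 and E15.5. Each library covered forelimbs and hindlimbs, cells were freed mechanically and with trypsin, and each age gave 1 droplet library made with a 10x 3′ kit. The labels do not give the number or sex of the embryos. With 1 library per age there was no replicate and no test between the ages, and every interval below is a 95% interval that covers counting error only.

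Counts are UMIs (unique molecular identifiers), each marking an RNA molecule caught in a droplet. After filtering, 11001 of 12941 cells remained in the E12.5 library (median 2323 UMIs), and 3916 of 5780 in the E15.5 library, whose median was 9327.5 UMIs. Cell classes were rebuilt from marker genes without using the guidance genes. The connective tissue class comprised 7449 cells of the E12.5 library and 2024 of the E15.5 library, the chondrocyte class 1138 and 534, the muscle class 615 (5.59%) and 381 (9.73%), and the endothelial class 131 and 126. At E15.5, tenocyte (162 cells), mural (75), mast (70), immune (59) and Schwann (53) classes were also named, while 1578 E12.5 cells and 365 E15.5 cells stayed unnamed. Both libraries held male and female cells, with 22.7% and 21.1% male among the cells whose sex could be read. The libraries shared 17 deposited barcodes, of which 11 were kept in both.

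Levels are given as CPM, the UMIs of a gene scaled to the total UMIs of its class, and are compared between classes and ages for the same gene only. All 69 genes had at least 1 UMI in each library. Their sum was 0.307% of all E12.5 UMIs but 0.137% at E15.5. Summed over its genes, the Eph receptor A family went from 585 to 170 CPM, the Robo family from 346 to 79.7 CPM and the semaphorins from 846 to 390 CPM. The neuropilins went from 260 to 197 CPM and the netrins from 47.1 to 32.9 CPM. Slit1, Robo3, Epha8 and Epha10 stayed under 30 UMIs in each library. The plot of levels by class and age shows which cells held each gene.

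**Figure D1:**
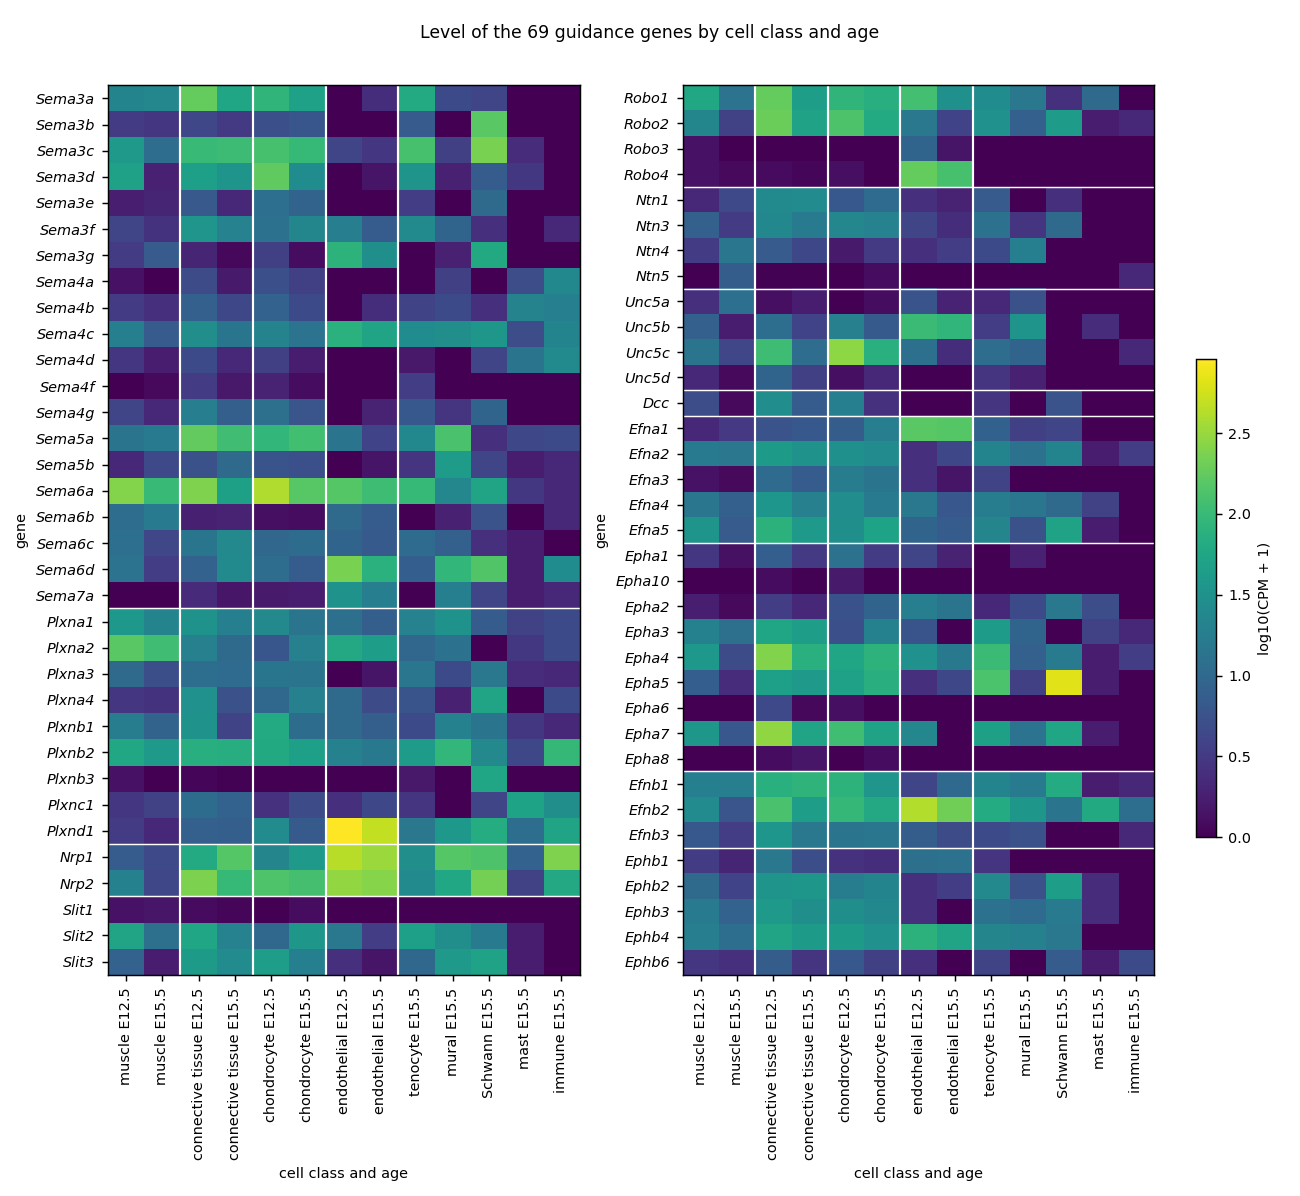
Level of each of the 69 guidance genes, as log10(CPM + 1), by cell class and age, with genes ordered by family. Columns are the 4 common classes at both ages and 5 further classes at E15.5, and each tile is 1 class of 1 library, summed over its cells. Plxnd1 and Robo4 are bright in the endothelial columns, and Epha5 reaches 668 CPM in Schwann cells.

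The endothelial class was the leading source of 11 guidance genes (E12.5) and 12 (E15.5), where leading means a level at least 2-fold above each of the other 3 common classes with at least 30 UMIs in all. That is 17.7% of the 62 and 19.7% of the 61 guidance genes with enough UMIs, beside 7.79% and 7.62% of all genes. At both ages the same 10 genes were among them: Robo4, Plxnd1, Sema3g, Sema7a, Efna1, Sema6d, Nrp1, Unc5b, Efnb2 and Sema4c. Epha2 joined them at E12.5, and Nrp2 and Ephb1 at E15.5. Few endothelial UMIs lay behind Epha2 (11) and Sema7a (20) at E12.5 and Ephb1 (24) at E15.5. The group holds receptors for several ligand families, and also ligands. Against all classes of at least 50 cells, with at least 30 UMIs in the highest class, endothelial cells led 9 of 54 guidance genes at E12.5 (5.81% of all genes) but 5 of 50 at E15.5 (3.5%), the latter being Efna1, Plxnd1, Efnb2, Robo4 and Unc5b. Named classes of that size numbered 5 at E12.5, where erythroid cells were the fifth, and 9 at E15.5. Sema6d stood higher at E15.5 in Schwann (143 CPM) and mural cells (89.4 CPM) than in endothelial cells (76.2 CPM), and Sema7a was at 17.9 CPM in mural cells beside 17.6 CPM.

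Robo4 (ENSMUSG00000032125, chromosome 9, 37401897 to 37415115, plus strand, GRCm38), a vessel-specific relative of the axonal Robos, stood at 181 CPM (149–218) in E12.5 endothelial cells and at 126 CPM (111–142) at E15.5. The muscle class held 1 UMI of Robo4 at each age. After thinning every cell to 2000 UMIs, Robo4 was found in 28.0% (20.1–37.0) of 118 E12.5 endothelial cells and 20.8% (14.1–29.0) of 125 at E15.5. It was found in 0 of 559 muscle cells at E12.5 at that depth. Without thinning the endothelial shares were 50.4% and 73.0%, at median depths of 3944 and 12780 UMIs, and the muscle shares 0.163% and 0.262%, at 3747 and 14288 UMIs.

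Plxnd1 (ENSMUSG00000030123, chromosome 6, 115954811 to 115995005, minus strand), the plexin through which Sema3e acts on vessels, stood at 911 CPM (838–990) in endothelial cells at E12.5, against 26.0 CPM in chondrocytes, the next class. At E15.5 it stood at 492 CPM (462–523), against 6.88 CPM in connective tissue. Nrp1, a co-receptor for class 3 semaphorins and for Vegf, was at 440 CPM (389–495) and 326 CPM (302–352). Unc5b, a netrin receptor of vessels, was at 104 CPM (80.5–133) and 88.5 CPM (76.0–102). Endothelial cells were thus the highest of the 4 common classes for these 4 receptors at both ages.

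Because Robo4 and Plxnd1 shared this source, their upstream sequences are shown, as the 250 bases before the start in RefSeq on GRCm38.p6, 5′ to 3′ on the strand of the gene. For Robo4 the stretch runs past the gene start given above, which comes from another annotation, and its marked letters lie beyond that start. Capitals mark AGGAAG, which holds the core of the motif bound by Ets factors, a family active in endothelium, and was searched on both strands.
Robo4, chr9:37401722-37401971, plus strand: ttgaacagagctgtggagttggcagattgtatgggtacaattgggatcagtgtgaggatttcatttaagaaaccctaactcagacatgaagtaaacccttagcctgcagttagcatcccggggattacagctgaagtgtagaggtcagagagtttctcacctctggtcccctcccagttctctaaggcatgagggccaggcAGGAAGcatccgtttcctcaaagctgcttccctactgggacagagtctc
Plxnd1, chr6:115995006-115995255, minus strand: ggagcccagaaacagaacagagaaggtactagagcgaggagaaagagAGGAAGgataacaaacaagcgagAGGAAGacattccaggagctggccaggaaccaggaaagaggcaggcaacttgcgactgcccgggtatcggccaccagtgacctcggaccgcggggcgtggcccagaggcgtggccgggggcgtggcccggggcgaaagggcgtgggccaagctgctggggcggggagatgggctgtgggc
Of the 13 promoters listed for the 10 genes that endothelial cells led at both ages, 5 held these letters in the 250 bases, those of Efna1, Nrp1, Plxnd1, Robo4 and Sema3g. Among all 32851 promoters 29.5% held them, and both the motif and the 2 genes were chosen after values had been seen. A match is a description of the letters, not of a bound site.

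The muscle class led 1 guidance gene at E12.5 (1.61% of 62, beside 3.51% of all genes) and 5 at E15.5 (8.20% of 61, beside 3.16%). Plxna2 (ENSMUSG00000026640, chromosome 1, 194618218 to 194816869), a receptor for class 6 semaphorins, was the gene it led at both ages, with 158 CPM (143–174) at E12.5 and 111 CPM (102–120) at E15.5. Endothelial cells came next with 61.0 and 44.5 CPM. At E15.5 muscle also led Sema6b at 15.2 CPM, Ntn4 at 13.6 CPM, Unc5a at 11.2 CPM and Ntn5 at 6.46 CPM. Sema6b is a membrane semaphorin, Ntn4 a netrin of basement membranes and Unc5a a netrin receptor, and the next of the 4 classes stood at 6.35, 3.34 and 0.977 CPM for them. Mural cells held more Ntn4 at that age, 17.9 CPM. Against all classes of at least 50 cells, muscle led 1 gene at E12.5 (3.38% of all genes) and 4 at E15.5 (2.0%), Plxna2, Ntn5, Unc5a and Sema6b.

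Connective tissue led 13 guidance genes at E12.5 (21.0%, beside 3.84% of all genes) and 7 at E15.5 (11.5%, beside 4.06%), with 3 genes, Epha3, Ntn1 and Unc5d, at both ages. Ntn1, the attractant that Dcc and Unc5 proteins bind, stood at 25.1 and 26.0 CPM there, against 5.52 and 9.77 CPM in chondrocytes. Epha4, the Eph receptor known for sorting limb motor axons, stood at 253 CPM at E12.5, and chondrocytes came next at 56.2 CPM. Epha6 (3.51 CPM), Unc5d (8.04 CPM), Plxnc1 (10.0 CPM) and Plxna4 (30.1 CPM) were the other genes with the widest margins at E12.5. At E15.5 they were Dcc (6.31 CPM), Efnb1 (83.2 CPM), Sema6c (23.7 CPM) and Epha3 (43.8 CPM). Chondrocytes led 3 genes at E12.5 (4.84%, beside 2.72%) and 5 at E15.5 (8.20%, beside 3.75%). Their genes at E12.5 were Sema3d at 172 CPM, Plxnb1 at 64.3 CPM and Unc5c at 289 CPM. Unc5c stayed the highest there at E15.5 with 74.4 CPM, 7.14 times the connective tissue level, and Sema3e, Plxna4, Sema3b and Efna3 were the other 4, at 7.87, 18.4, 5.24 and 12.6 CPM. Against all classes of at least 50 cells, connective tissue led 13 genes at E12.5 (4.81% of all genes) and 2 at E15.5 (1.85%), Sema6c and Ntn1, and chondrocytes led 3 (2.57%) and 2 (1.32%), the latter being Efna3 and Unc5c.

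Among all 9 classes of at least 50 cells at E15.5, Schwann cells, the glia that line nerves, stood at least 2-fold above every other class, with at least 30 UMIs, for 5 of 50 guidance genes, beside 2.94% of all genes. By any margin and any number of UMIs they were the highest class for 15 of the 69, beside 13.1% of all genes. Epha5 (ENSMUSG00000029245, chromosome 5, 84054761 to 84417382) reached 668 CPM (606–735) in them, and tenocytes came next at 130 CPM. Sema3b stood at 159 CPM (130–193), and the next class, tenocytes, at 6.09 CPM. Plxnb3 stood at 53.6 CPM from 34 UMIs, and the next class held 1 UMI. Plxna4 stood at 52.0 CPM and Sema3g at 61.5 CPM, in the latter case above the endothelial 28.8 CPM. Connective tissue markers summed to 43.0% of their own-class level in Schwann cells (2 of 10 at 0) and to 24.1% in mural cells, and their part in these levels was not tested. Mural cells, which wrap vessels, led 1 gene (1.11% of all genes), Sema5b, with 41.1 CPM (30.1–54.9). Sema3c, a gene outside the naming rule and chosen after its values were seen, stood at 230 CPM in Schwann cells and at 124 CPM in tenocytes, the next class.

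Immune and mast cells at E15.5 each led 0 of 50 guidance genes by at least 2-fold, beside 5.28% and 2.9% of all genes. By any margin and any number of UMIs they were the highest class for 3 and 2 of the 69, beside 13.4% and 9.94%. The genes described here were also chosen after their values were seen. Plxnc1, the receptor of Sema7a, was at 51.4 CPM (40.5–64.3) in mast cells and 27.8 CPM (17.6–41.7) in immune cells, against 7.50 CPM in connective tissue. Sema4a and Sema4d, semaphorins known from lymphocytes and myeloid cells, were at 23.0 and 25.4 CPM in immune cells, from 19 and 21 UMIs. Nrp1 reached 243 CPM (210–279) in immune cells, between the endothelial and the connective tissue level. Connective tissue markers summed to 1.05% of their own-class level in mast and 1.43% in immune cells, and the part of free RNA in these levels was not tested.

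Between the ages, more guidance genes were lower than higher. Over all kept cells, 43 of the 69 genes were measured (at least 30 UMIs over both libraries and 10 CPM at one age). Of these 15 were lower at E15.5, by at least 2-fold in CPM and relative to the median gene, 0 were higher and 28 lay between. Among all 9796 measured genes, 7.19% were called lower and 7.55% higher. The lowest ratios were those of Unc5c (114 to 14.5 CPM), Dcc (29.97 to 4.12 CPM), Epha7 (264 to 37.2 CPM), Plxnb1 (33.5 to 5.45 CPM) and Robo2 (180 to 36.0 CPM). The median log2 ratio (E15.5 over E12.5) was -0.92 for the measured guidance genes and -0.33 for all measured genes. Over all cells, a change within a class and a change in the mix of classes cannot be told apart, so the classes were also compared one by one.

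In the connective tissue class 14 of 42 measured guidance genes were lower at E15.5 (33.3%) and 2 were higher (4.76%), beside 9.7% and 8.28% of all measured genes. Receptors made up 10 of the 14 and ligands 4, while 11 receptors and 15 ligands lay between. In the muscle class 6 receptors and 9 ligands were lower. Unc5c (ENSMUSG00000059921, chromosome 3, 141465216 to 141834924), a repulsive netrin receptor, fell from 108 CPM (103–113) to 10.4 CPM (9.08–11.9), a log2 ratio of -3.37 (-3.58 to -3.17). Plxnb1, the receptor of Sema4d, fell from 31.6 to 3.06 CPM, a ratio of -3.37 (-3.76 to -2.99). Epha7 (ENSMUSG00000028289, chromosome 4, 28813131 to 28967499), an Eph receptor for ephrin-A ligands, fell from 291 CPM (283–299) to 52.2 CPM (49.1–55.4), a ratio of -2.48 (-2.57 to -2.39). In each of these the intervals of the 2 ages lay far apart.

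Both main Slit receptors fell in connective tissue, Robo1 from 181 to 45.1 CPM and Robo2 from 199 to 49.5 CPM, each with a log2 ratio of -2.01, and their ligand Slit2 fell from 54.2 to 19.8 CPM (-1.45). Dcc, the attractive netrin receptor, fell from 27.5 to 6.31 CPM (-2.12), and Unc5b from 10.9 to 2.91 CPM (-1.90). Plxna4 fell by 2.74 on the log2 scale and Sema6a by 2.39, from 30.1 to 4.49 CPM and from 243 to 46.5 CPM. Epha4, Sema3a, Efnb2 and Ephb1 had ratios between -1.81 and -1.58. Ntn1 was 25.1 and 26.0 CPM, so the ligand of Dcc and Unc5c had nearly equal levels while both receptors fell.

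Nrp1 (ENSMUSG00000025810, chromosome 8, 128358604 to 128503363) rose in connective tissue from 62.8 CPM (59.3–66.6) to 150 CPM (144–155), a log2 ratio of 1.25 (1.15–1.35). Its ligand Sema3a fell from 180 to 54.2 CPM in the same class (-1.73). Sema6d, a membrane semaphorin, rose from 7.50 CPM (6.30–8.85) to 24.8 CPM (22.7–27.0), a ratio of 1.73 (1.45–2.01). Nrp2 was 237 and 95.6 CPM and narrowly missed the call relative to the median gene. In thinned cells Nrp1 was found in 10.5% (9.65–11.4) of E12.5 connective tissue cells and 21.2% (19.4–23.0) at E15.5, with 2738 and 6 shallower cells left out. The unthinned shares were 12.2% and 53.5%, at median depths of 2310 and 9495.5 UMIs. In muscle cells, which held little Nrp1, the thinned shares were 1.43% and 0.533%.

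**Figure D2:**
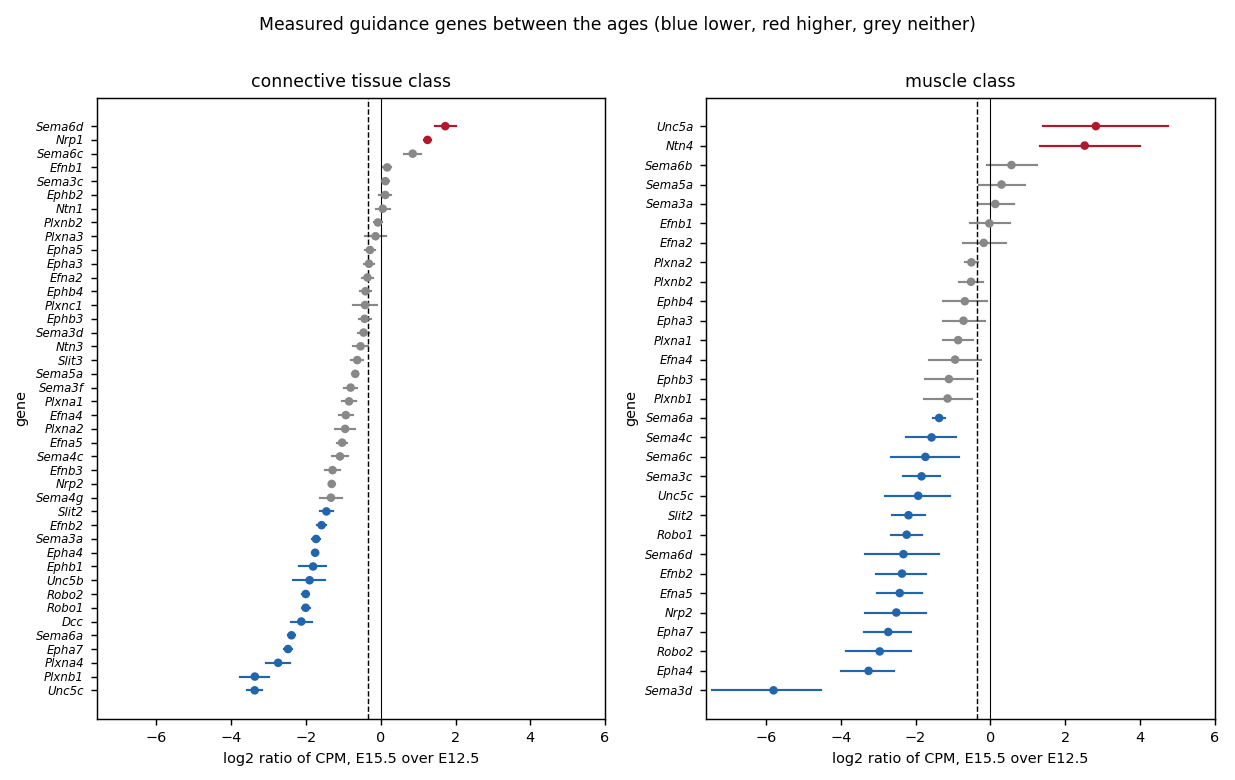
Log2 ratio of CPM (E15.5 over E12.5) of each measured guidance gene in the connective tissue and muscle classes, with 95% counting intervals as bars. The solid line marks 0 and the dashed line the median of all measured genes (-0.35 in both classes), and 14 of 42 genes in connective tissue and 15 of 30 in muscle are blue (lower).

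Long genes fell more often than short ones in these libraries, and many guidance genes are long. In connective tissue, genes that span at least 100 kb were called lower in 20.8% of 1440 cases, and genes under 20 kb in 5.92% of 4022. Of the measured guidance genes, 25 span at least 100 kb, of which 11 were called lower (44.0%). Another 10 span under 20 kb, of which 0 were. Between 20 and 100 kb, 3 of 7 guidance genes were called lower, beside 9.53% of 4229 genes. In the muscle class the shares among genes of at least 100 kb were 24.3% of 1236 genes and 12 of 17 guidance genes. Under 20 kb they were 5.74% of 3642 genes and 2 of 7 guidance genes. Between 20 and 100 kb they were 8.07% of 3893 genes and 1 of 6 guidance genes. Median UMIs per cell and the ribosomal protein share also differed between the libraries, the latter at 11.8% and 18.9% of connective tissue UMIs. The part of gene span, depth and ribosomal share in the falls was not tested.

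Guidance genes were also compared between the clusters of the connective tissue class. Across these (12 for E12.5, 9 for E15.5), which were made without the guidance genes, 30 of 58 genes and 26 of 52 genes with at least 30 UMIs had a highest cluster at least 2-fold above the median cluster, beside 30.3% and 29.2% of all genes with as many UMIs. Sema3c (ENSMUSG00000028780, chromosome 5, 17574281 to 17730268), a secreted ligand of neuropilins, stood at 374 CPM in the E12.5 cluster led by Barx1, Pax9 and Scrg1, and its median cluster was at 54.1 CPM. Sema3d was also highest in that cluster, at 165 CPM against 30.2 CPM, as was Epha6 at 17.6 CPM from 8 UMIs. The cluster led by Gdf5 and Sfrp2 was the highest for Sema3e (19.2 CPM, median 2.86), Efna1 (17.2 CPM, median 2.75) and Epha7 (760 CPM, median 178), the last chosen after its values were seen. Unc5d was highest at 37.7 CPM in the cluster led by Dcn and Sall1.

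At E15.5 the widest spread was that of Plxna4, a receptor for class 3 and class 6 semaphorins. It stood at 62.8 CPM in a cluster of 85 cells led by Twist2, Stmn2 and Irx1, and its median cluster was at 2.23 CPM. That cluster held 64 of the 94 Plxna4 UMIs of the class, 68.1% (57.7–77.3, exact binomial). Ntn4 was highest in the same cluster, at 21.6 CPM against a median of 3.33. Sema3c was highest at 398 CPM in the cluster led by Spink6, Anxa8 and Pi16, Ephb1 and Dcc at 12.1 and 18.8 CPM in the cluster led by Nefm, Tac1 and Sfrp2, and Epha1 at 8.98 CPM in the cluster led by Dpt and Apod.

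Dcc was higher in 2 clusters that stayed unnamed at E12.5 than in any connective tissue cluster. It stood at 138 CPM (119–158) in 770 cells led by Dcc itself, Thbs4 and Tbx5, and at 165 CPM (122–218) in 124 cells led by Col6a5, Itih5 and Dkk2. The connective tissue class as a whole stood at 27.5 CPM. The cluster led by Thbs4 also held the highest level of Epha5, 128 CPM (110–147), and an unnamed cluster of 684 cells led by Shisa2, Gas2 and Fras1 the highest of Robo2, 348 CPM (318–381). With unnamed clusters of connective character joined to the class, a setting added after seeing the data, the counts of connective tissue genes called lower and higher stayed within 1.5 times of those above.

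**Figure D3:**
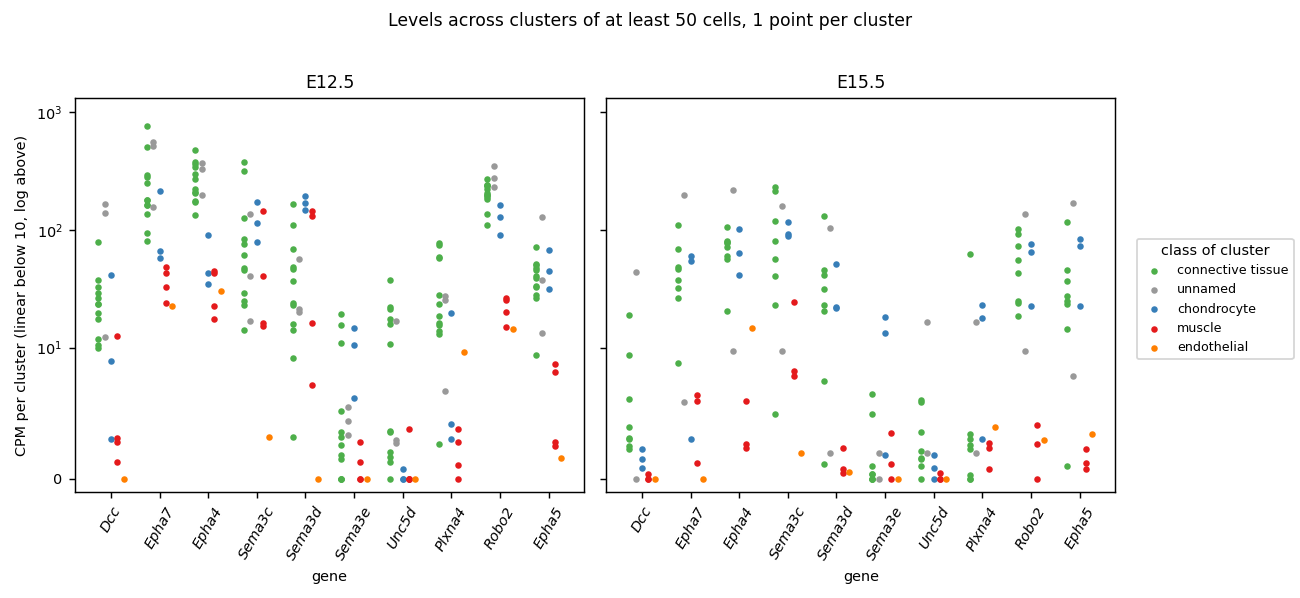
CPM of 10 guidance genes in every cluster of at least 50 cells by age, 1 point per cluster, coloured by class, on an axis that is linear below 10 CPM and logarithmic above. Dcc is highest in 2 unnamed clusters at E12.5 (138 and 165 CPM), and 1 connective tissue cluster stands apart for Plxna4 at E15.5 (62.8 CPM).

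In the muscle class 15 of 30 measured guidance genes were lower at E15.5 and 2 were higher (6.67%), beside 9.38% and 3.23% of all measured genes. Free RNA differed between the libraries and bears on these counts. The 10 connective tissue markers summed to 11.7% of their own-class level in muscle cells at E12.5 (4.08–24.1% by marker) and to 4.38% at E15.5 (0.553–6.35%), and none of the 10 was at 0 in either library. For 6 of the 15 genes, Nrp2, Epha4, Unc5c, Epha7, Efnb2 and Robo2, the muscle level at E12.5 lay within that marker range, at 8.0% to 20.2% of the connective tissue level. Their E12.5 levels cannot be told apart from background, so no change in muscle cells is read from these 6. At E15.5 Nrp2, Epha4 and Robo2 again lay within the range, whereas Efnb2, Epha7 and Unc5c lay above it, at 11.7%, 10.4% and 31.8% of the connective tissue level. The other 9 genes lay above the range at E12.5. A level above the range can still hold background, and the part of background in the falls of these 9 was not tested.

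Sema3d (ENSMUSG00000040254, chromosome 5, 12383385 to 12588948), a secreted semaphorin, had the lowest ratio in muscle. It fell from 48.6 CPM (40.4–58.0), from 123 UMIs, to 0.873 CPM (0.283–2.04), from 5 UMIs, a log2 ratio of -5.80 (-7.45 to -4.54). In thinned muscle cells it was found in 9.12% (6.87–11.8) of 559 E12.5 cells but in 0 of 375 at E15.5, with 12.8% and 1.31% before thinning. In thinned endothelial cells Sema3d was found in 0 of 118 and 0 of 125. At E12.5 connective tissue markers summed to 4.95% of their own-class level there, against 11.7% in muscle. These zeros therefore do not measure the background in muscle, whose part in the Sema3d level was not tested. Muscle clusters rich in Myog and sarcomere genes (called differentiating below) held 103 of the 123 Sema3d UMIs. Such clusters made up 28.6% of the muscle cells in the younger library but 18.1% in the older one. They took in 65 cells led by Myh3, Mylpf and Myl1 at E12.5, while 20 E15.5 cells led by Mylpf stayed outside the class. The part of this make-up in the Sema3d fall was not tested. Slit2 fell from 52.6 to 11.5 CPM (-2.19) and Robo1, its receptor, from 58.5 to 12.4 CPM (-2.24). Efna5, an ephrin-A ligand known from axon repulsion, fell from 32.8 to 6.11 CPM (-2.43), and Sema3c from 37.6 to 10.5 CPM (-1.84). The part of the make-up of the class in the Sema3c fall was not tested either. Sema6a, a ligand of Plxna2, fell from 257 to 99.3 CPM (-1.37), and Sema6d, Sema6c and Sema4c had ratios of -2.33, -1.74 and -1.57.

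Ntn4 and Unc5a rose in muscle, from few counts. Ntn4 (ENSMUSG00000020019, chromosome 10, 93640681 to 93747207) counted 6 UMIs (E12.5) and 78 (E15.5), or 2.37 CPM (0.871–5.16) and 13.6 CPM (10.8–17.0), a log2 ratio of 2.52 (1.33–4.01). Unc5a (ENSMUSG00000025876, chromosome 13, 54949411 to 55006018) had 4 UMIs and 64, or 1.58 CPM (0.431–4.05) and 11.2 CPM (8.60–14.3), a ratio of 2.82 (1.39–4.74). Both stood above the connective tissue level at E15.5, which was 3.34 CPM for Ntn4 and 0.717 CPM for Unc5a. In male cells alone (143 and 65 muscle cells) the ratios were 2.06 and 1.68 and neither gene passed the call. Both ratios exceed 2-fold in CPM, but the call also needs the minimum UMIs and CPM and 2-fold relative to the median gene.

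Within muscle, clusters rich in Pax7 and Msc (called progenitor here) were set against clusters rich in Myog and sarcomere genes (called differentiating), a grouping made after the clusters were seen. At E12.5 these held 439 and 176 cells, and at E15.5 312 and 69. Differentiating clusters were at least 2-fold higher for 4 of 26 measured guidance genes and lower for 3 at E12.5, beside 9.09% and 12.2% of all measured genes. At E15.5 they were higher for 4 and lower for 7 of 16, beside 9.43% and 16.8%. These are comparisons of cells of 1 library each.

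The mix of both states differed between the ages. Differentiating clusters held 29.8% of the muscle UMIs and 28.6% of the muscle cells at E12.5 but 15.1% and 18.1% at E15.5. Those of E12.5 took in 65 cells in which Myh3, Mylpf and Myl1 led, while at E15.5 a cluster of 20 cells led by Mylpf, Tnnc2 and Acta1 stayed unnamed and outside the class. The ages were therefore also compared within each state, a setting added after seeing the data. In progenitor clusters 14 of 29 measured guidance genes were lower and 2 higher, beside 8.28% and 3.99% of all measured genes. The 14 include Nrp2, Epha4, Unc5c, Epha7, Efnb2 and Robo2, whose muscle levels at E12.5 cannot be told apart from background. No change in progenitor cells is read from those genes. In differentiating clusters 6 of 12 were lower and 1 higher, beside 13.2% and 5.11%. Epha7, of which no change in muscle is read, is among the 6. The cluster led by Myh3, Mylpf and Myl1 remained in the E12.5 side of this comparison only. Age and maturity therefore cannot be told apart in the differentiating clusters.

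Robo1, Slit2 and Efna5 were called lower in both states. Robo1 went from 56.9 to 13.99 CPM in progenitor clusters and from 62.4 to 3.46 CPM (3 UMIs) in differentiating clusters, Slit2 from 59.1 to 13.2 CPM and from 37.2 to 2.30 CPM (2 UMIs), and Efna5 from 32.7 to 5.55 CPM and from 33.2 to 9.22 CPM. Sema3d was measured in differentiating clusters only, where it went from 137 to 2.30 CPM (2 UMIs). Sema3c was called lower in differentiating clusters (-1.88) but not in progenitor clusters (-0.97). The log2 ratio of Sema6a was -1.25 (-1.46 to -1.03) in progenitor and -0.996 (-1.27 to -0.73) in differentiating clusters, short of the call in each. Ntn4 and Unc5a were called higher in progenitor clusters (2.25 and 2.22), and Sema6b, from 18 and 45 UMIs, in differentiating clusters (1.12).

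At both ages the differentiating cells held more Sema6a and Sema3c and less Plxnb2 and Ephb4. Sema6a stood at 189 CPM in progenitor and 418 CPM in differentiating clusters at E12.5, and at 79.6 and 210 CPM at E15.5. Sema3c stood at 15.8 and 89.0 CPM at E12.5, and at 8.02 and 24.2 CPM at E15.5. The progenitor level of Sema3c at E12.5 lay within the marker range given above (connective tissue 96.5 CPM). Plxnb2, a plexin for class 4 semaphorins, stood at 69.8 and 25.2 CPM and then at 44.4 and 11.5 CPM. Ephb4, the receptor of Efnb2, stood at 21.4 and 7.97 CPM and then at 12.1 and 3.46 CPM, the last from 3 UMIs. Sema3d was a gene of the differentiating clusters at E12.5, with 11.3 against 137 CPM, and Sema6d was higher there too, with 5.63 against 27.9 CPM, whereas Plxnb1 was lower, with 22.5 against 3.98 CPM from 3 UMIs.

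At E15.5 the differentiating cluster held more Sema6b, 8.64 against 51.9 CPM, and more Plxna1, 13.4 against 59.9 CPM. Ntn4 was a gene of the progenitor clusters, with 78 UMIs (16.0 CPM) there and 0 in the differentiating cluster, at least 4.64-fold lower against a floor of 3 counts. Sema3a stood at 25.9 CPM in progenitor clusters and at 3.46 CPM, from 3 UMIs, in the differentiating cluster, a log2 ratio of -2.91 (-5.20 to -1.33). Slit2, Robo1 and Efna2 were lower in the differentiating cluster as well, each from 2 or 3 UMIs, with ratios of -2.51 (-5.59 to -0.60), -2.02 (-4.33 to -0.41) and -2.20 (-4.50 to -0.59).

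**Figure D4:**
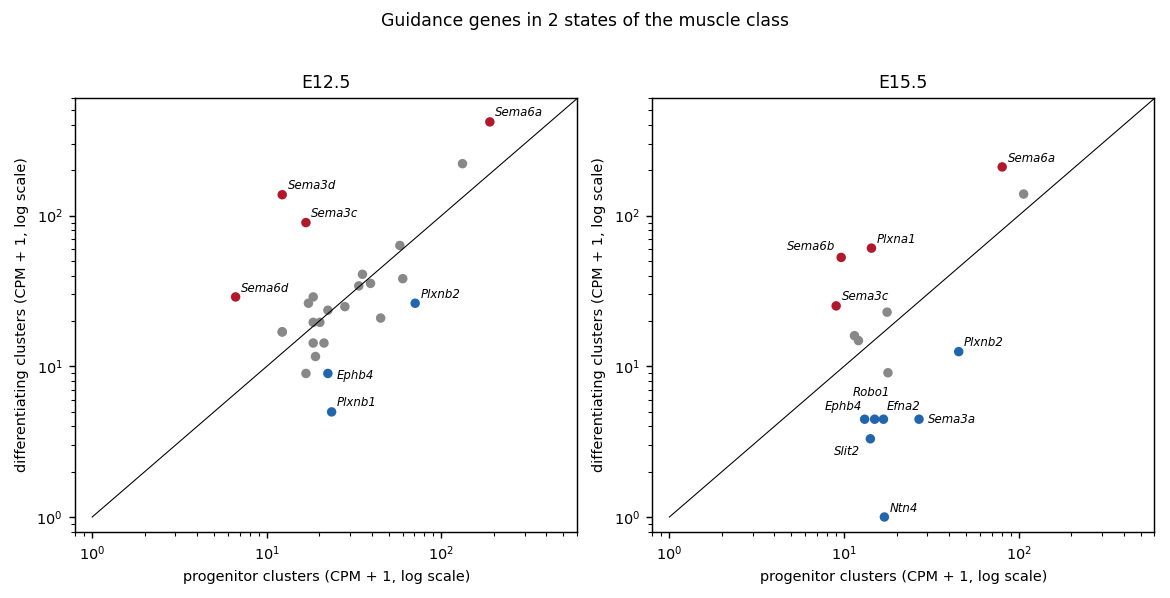
Level of each measured guidance gene in progenitor and differentiating clusters of the muscle class, as CPM + 1 on log axes, with the line of equality. Red genes are at least 2-fold higher and blue genes at least 2-fold lower in differentiating clusters. Sema6a and Sema3c lie above the line at both ages, Ephb4 and Plxnb2 below it.

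In the endothelial class 3 of 19 measured guidance genes were lower at E15.5 (15.8%) and 0 were higher, beside 5.69% and 6.45% of all measured genes. By CPM alone 5 were lower, with no doublets removed 6, and with a minimum of 10 UMIs 10. Robo1 fell from 119 CPM (93.2–149) to 29.3 CPM (22.4–37.7), a log2 ratio of -2.02 (-2.53 to -1.51). Sema6d fell from 233 CPM (196–274) to 76.2 CPM (64.7–89.2), a ratio of -1.61 (-1.95 to -1.27). Sema3g, a semaphorin made by vessels, fell from 81.8 CPM (60.9–108) to 28.8 CPM (22.0–37.2), a ratio of -1.51 (-2.07 to -0.94). Robo4 had a ratio of -0.53 (-0.85 to -0.20), so the endothelial Robo1 and Robo4 ratios have intervals that do not meet. Efnb2 had a ratio of -1.04 in CPM, which was under 2-fold relative to the median gene. The class held 131 and 126 cells, and 50 of the 69 genes were not measured in it.

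Efnb2 and its receptor Ephb4, known as arterial and venous markers, were both present in endothelial cells, at 420 and 78.6 CPM at E12.5 and at 205 and 52.3 CPM at E15.5. In thinned cells at E15.5, 33 of 125 cells held Efnb2 without Ephb4, 11 held Ephb4 without Efnb2 and 1 held both. At E12.5 these numbers were 49, 6 and 8 of 118 cells. Without thinning, 43 of 126 cells held both at E15.5 and 28 of 131 at E12.5, so that the overlap depends on depth.

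In the chondrocyte class 9 of 44 measured guidance genes were lower (20.5%) and 5 higher (11.4%), beside 7.66% and 8.77% of all measured genes. Dcc fell from 17.9 to 1.67 CPM, Sema3d from 172 to 26.7 CPM, Plxnb1 from 64.3 to 10.0 CPM, Epha1 from 12.02 to 2.38 CPM and Plxnd1 from 26.0 to 5.96 CPM, with log2 ratios from -3.42 to -2.12. Unc5c fell from 289 to 74.4 CPM. Epha3, Slit2, Plxna2, Efna1 and Plxna4 were higher, with ratios of 2.18, 1.97, 1.82, 1.42 and 1.07. The make-up of the class differed: its largest E15.5 cluster (332 cells) was led by Mia, Mecom and Cpm, and its largest at E12.5 (606 cells) by Cytl1, Matn1 and Hapln1. Connective tissue markers summed to 41.7% and 51.3% of their own-class level in it. When both libraries were clustered together the ratios of Epha3, Slit2, Plxna2 and Plxna4 were below 0, at -1.48, -1.97, -0.27 and -1.19, so no direction is read for these 4.

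Across classes, Robo1, Sema6a and Unc5c were called lower in 3 of the 4, and 8 genes were lower in both connective tissue and muscle (57.1% of the 14 and 53.3% of the 15). Over all genes, 28.0% of those lower in connective tissue were lower in muscle, and 32.0% of those lower in muscle were lower in connective tissue. Of the 8, Epha4, Epha7, Efnb2, Robo2 and Unc5c had muscle levels at E12.5 that cannot be told apart from background. For Robo1, Sema6a and Slit2 the part of background in the muscle falls was not tested.

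The levels of known ligand and receptor partners were set side by side by class, without a measure of signalling. For Plxnd1, Nrp1, Unc5b and Nrp2, the ligands in the list of pairs were lower in endothelial cells than in another common class. This depends on the pairs chosen. Sema3g, a class 3 semaphorin outside the list, was highest in endothelial cells among the common classes, at 81.8 and 28.8 CPM. Efnb2 and Ephb4, a listed pair, were both present in endothelial cells. Sema3e had 0 UMIs in endothelial cells at both ages, which allows up to 4.81 and 1.47 CPM, and of the 4 common classes chondrocytes held the most, 11.0 and 7.87 CPM, while Plxnd1 was endothelial. Schwann cells stood at 9.46 CPM of Sema3e at E15.5, from 6 UMIs. Sema3a had 0 UMIs in endothelial cells at E12.5 and was at 1.47 CPM at E15.5, against 180 and 54.2 CPM in connective tissue. Ntn1 was at 1.60 and 0.977 CPM in endothelial cells and at 25.1 and 26.0 CPM in connective tissue, with Unc5b the other way round. Sema3c and Sema3f, ligands of Nrp2, were at 96.5 and 34.04 CPM in connective tissue at E12.5 and at 3.21 and 17.7 CPM in endothelial cells, where Nrp2 was at 303 CPM.

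Other pairs shared a class. Efna1 and Epha2 were both highest in endothelial cells among the common classes, at 160 and 17.7 CPM at E12.5 and at 152 and 12.7 CPM at E15.5. In connective tissue Slit2 and Slit3 were at 54.2 and 39.5 CPM at E12.5, with Robo1 at 181 CPM and Robo2 at 199 CPM, and Slit3 at 25.6 CPM at E15.5. Efna5 was at 79.0 and 38.6 CPM there, beside Epha3 at 54.5 and 43.8 CPM, and Efnb1 at 73.8 and 83.2 CPM, beside Ephb2 at 32.7 and 35.6 CPM and Ephb3 at 39.3 and 29.1 CPM. Muscle held both Sema6a and Plxna2, at 257 and 158 CPM at E12.5 and at 99.3 and 111 CPM at E15.5. Sema7a was at 32.1 and 17.6 CPM in endothelial cells, with Plxnc1 at 1.60 and 3.42 CPM there. Sema4d did not exceed 3.67 CPM in any of the 4 classes, beside Plxnb1 at up to 64.3 CPM.

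Of 35 other genes of guidance signalling (co-receptors, adaptors and cytoskeletal effectors), 27 were measured in connective tissue, of which 2 were lower and 2 higher, beside 9.7% and 8.28% of all measured genes. In muscle 26 were measured, of which 7 were lower and 0 higher, beside 9.38% and 3.23%. Their largest changes were those of Flrt3 in muscle, a membrane partner of Unc5 receptors, from 56.1 to 7.33 CPM (-2.94), and of Srgap3, an effector of Robo receptors, from 20.2 to 3.14 CPM (-2.68). In chondrocytes 6 of 25 were lower and 1 higher (7.66% and 8.77% of all measured genes), and in endothelial cells 2 of 23 were lower and 0 higher (5.69% and 6.45%). Of 12 vessel growth factors and receptors, 1 of 6 measured in connective tissue was higher and 1 of 7 in endothelial cells was lower, against the same shares of all genes. In chondrocytes 1 of 3 was higher (8.77% of all measured genes), and over all kept cells 2 of 7 were (7.55%). The largest changes were those of Vegfd in connective tissue, from 3.67 to 30.8 CPM (3.07), and of Angpt1 in chondrocytes, from 1.62 to 19.5 CPM (3.59). Of 11 neurotrophic factors and other ligands that attract axons at most 5 were measured in a class. In chondrocytes 2 of 2 were higher (8.77% of all measured genes), and in muscle 1 of 2 was lower (9.38%). The largest changes were those of Nrtn in chondrocytes (5.85 to 24.3 CPM) and, in muscle, of Cxcl12, a chemokine placed in that list (14.2 to 4.01 CPM). The make-up of the chondrocyte class differed between the ages, and its part in the Angpt1 and Nrtn changes was not tested. Cxcl12 was among the leading genes of an E12.5 connective tissue cluster, and connective tissue markers were lower in muscle at E15.5. The part of background in the muscle falls of genes in these lists was not tested.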

How the data were processed

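The deposited matrices hold raw counts, UMIs per gene and cell barcode, one matrix per library, per the file headers. Cell Ranger 4.0.0, Seurat 4.3.0 and the build mm10 are named in the submitters' processing notes, with no roles or settings, and no cell annotation was used here. Cells with at least 500 genes and under 10% mitochondrial UMIs were kept. Doublets were scored against 2 simulated doublets per cell, and the top scores were removed at 0.8% per 1000 barcodes (E12.5: 1270 cells, 10.3%, and E15.5: 190 cells, 4.63%). Each library was clustered on its own (2000 variable genes without guidance, globin and sex-linked genes, 30 principal components, 15 neighbours, Leiden resolution 1.0). Clusters took a class name from at least 3 markers that were 2-fold higher and in at least 10% of cells, with at least 1 marker in the top 10 genes. Clusters left over were named connective tissue from at least 3 of its markers against the other named classes. How clusters were named was decided with their leading genes in view.

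UMIs were summed per class and library. CPM have exact Poisson intervals, ratios exact conditional intervals and shares exact binomial (Clopper-Pearson) intervals, all at 95%, and a count of 0 allows up to 3 counts. The calls between ages need at least 2-fold in CPM and relative to the median measured gene. The steps were tested on simulated data. Gene positions are those of GENCODE vM21 (GRCm38, the mm10 assembly), in which all 69 identifiers matched.

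The genes, marker lists and partner pairs were chosen with earlier results of these data known. Named were, per comparison, up to 5 called genes with the highest and 5 with the lowest ratios, up to 6 genes per leading class (4 for further classes), both partners of 19 pairs, the 6 genes with the widest spread over connective tissue clusters among those with at least 30 UMIs, and the 2 most changed genes of each other list. Alternatives were other doublet, gene and UMI minimums, resolutions 0.5 and 2.0, joint clustering, guidance genes kept in clustering, equal cell weights, each sex alone, another call rule, and, added after seeing the data, unnamed clusters joined to a class and each muscle state alone. The software was Python 3.11.15 with scipy 1.17.1, numpy 2.4.6, pandas 2.3.3 and scikit-learn 1.9.0, leidenalg 0.10.2 on igraph 0.11.9 for clusters, and matplotlib 3.10.9 for plots.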

Additional observations from a re-analysis of the deposited data

Results flagged for a closer look

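Plxna4, Sema6d and Slit2 were called in opposite directions in different classes, and the differences between the classes were not tested, because neither age had a replicate. Plxna4 had a log2 ratio (E15.5 over E12.5) of -2.74 in connective tissue and 1.07 in chondrocytes. Slit2 had ratios of -2.19 in muscle, -1.45 in connective tissue and 1.97 in chondrocytes. The chondrocyte directions of both turned when the libraries were clustered together. Sema6d had ratios of -2.33 in muscle, -1.61 in endothelial cells and 1.73 in connective tissue.

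Epha5 and Robo2 were higher in 2 unnamed E12.5 clusters, which entered no class comparison, than in any named class. Epha5 stood at 128 CPM in the unnamed E12.5 cluster of 770 cells led by Dcc, Thbs4 and Tbx5. Robo2 stood at 348 CPM in the unnamed E12.5 cluster of 684 cells led by Shisa2.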

How the results depend on the processing

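Of 138 recomputed counts of called genes, 120 stayed within 1.5 times of the reported count. In male cells alone, which were 143 and 65 of the muscle cells, 2 genes were higher over all cells, 1 in chondrocytes and 0 in muscle, 4 were lower in muscle, and 6 were led by endothelial cells at E12.5. In female cells 4 were higher in connective tissue. With at least 100 UMIs, 8 were lower and 0 higher in muscle and 2 higher in chondrocytes, from fewer genes tested. With at least 10 UMIs 10 were lower in endothelial cells, by CPM alone 5, and with no doublets removed 6. Chondrocytes had 3 higher with no doublets removed, 2 at resolution 2.0 and 1 with both libraries clustered together. With equal cell weights 1 gene was higher over all cells. Of 712 recomputed ratios of called genes, 602 stayed within the counting interval, 106 moved outside it in the same direction, 35 of them in male cells, and 4 reversed. These were the chondrocyte ratios of Plxna2 (-0.27), Slit2 (-1.97), Plxna4 (-1.19) and Epha3 (-1.48) with both libraries clustered together. The causes of these changes were not tested. No value could be had where an age held 0 UMIs, as for Epha1 in jointly clustered chondrocytes. Settings that joined unnamed clusters to connective tissue or muscle were chosen after seeing the data and moved no count by over 1.5 times. In differentiating muscle clusters alone, also chosen then, 6 were lower and 1 higher, from fewer genes tested. No paired analysis was possible because each age had 1 library, and no replicate could be left out. In the endothelial class, of 131 and 126 cells, 50 of 69 genes were not measured.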

Other observations

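At E15.5 an unnamed cluster of 61 cells, with a median of 2457 UMIs, was led by the non-coding RNAs Gm26917, B830012L14Rik and A330076H08Rik, and also by Meg3 and Miat, RNAs known from the nucleus. For 19 of the 69 guidance genes this cluster held the highest level of the 21 clusters of at least 50 cells, 5 of them with at least 30 UMIs. That is 27.5% of the 69, and of all genes 17.8% were highest there. Epha4 stood there at 218 CPM (156 to 297), Slit2 at 235 CPM (170 to 316), Robo1 at 175 CPM (119 to 246) and Sema5a at 273 CPM (202 to 360). The connective tissue class held 74.9 CPM of Epha4 at that age, and 253 CPM at E12.5.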
